A study of Mus musculus with 19 samples.

Results

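The endoderm of the mouse visceral yolk sac (VYS) was compared between E12.5 and E9.25, using the RNA-seq libraries made from isolated yolk sac endoderm (ysE). Libraries were taken by the tissue and stage in their labels, which gave 3 of the 11 RNA-seq libraries and of the 19 samples of the series, namely 1 library from E12.5 ysE and 2 from E9.25 ysE (A and B). The series set cystic embryoid bodies, which are fluid-filled aggregates of differentiating embryonic stem cells, beside ysE, yolk sac mesoderm and fetal liver. All ysE, mesoderm and liver RNA came from FVB mice with no mutation or treatment named, each sample was a pooled litter, and the mesoderm was of E9.25 and the liver of E12.5. The 4 cystic EB libraries were in the fit without being compared, and bear on its spread, its scaling and the set of genes tested. They were a group of mixed age (day 10 and 15), ES cell clone (C57Bl/6x129) and library protocol. The endoderm was peeled from the mesoderm by hand after Dispase II digestion, which was longer at E12.5 than at the earlier stage. Ribosomal RNA was depleted from total RNA. The E12.5 ysE library carried no strand information, whereas both E9.25 ysE libraries were made with dUTP and kept it, as did mesoderm, while liver was made with another strand-keeping kit, so stage and library protocol cannot be told apart in any difference between them. No replicate exists at E12.5, so the error of each fold change rested on the spread within the E9.25 ysE, mesoderm, liver and cystic EB groups, and p-values measure only that spread.

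The visceral yolk sac is the first placenta of the mouse embryo. Its endoderm, the outer of its layers, is an absorptive epithelium. It takes up maternal protein by endocytosis, degrades it in lysosomes and passes nutrients inwards. It also secretes carrier proteins, apolipoproteins and clotting factors that the liver makes later in life. Beneath it lies the mesoderm, which carries blood islands and vessels, and whose RNA can be carried over when the layers are separated.

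The 3 ysE libraries held 40453779 counted reads at E12.5 and 108710581 and 169981821 reads in E9.25 A and B. Across 18705 tested genes, log2(RPKM + 1) correlated with r = 0.9965 between the E9.25 libraries, and with r = 0.9255 and 0.9279 between E12.5 and each of them (genes are not independent replicates). RPKM is a read count divided by transcript length and by the library's total, so that genes and libraries can be set side by side. Afp, encoding alpha-fetoprotein, was the most abundant coding transcript in all 3 libraries, and Tex19.1, a germline and placenta gene, was well above its level in mesoderm and liver in all 3. The 17 markers of ysE summed to 50601 RPKM at E12.5 and to 13764 and 15542 RPKM at E9.25. Afp alone held 35558, 6071 and 6628 RPKM of these sums. In E9.25 mesoderm the markers summed to 1478 and 2618 RPKM, so they set ysE apart from mesoderm at both stages. Liver and cystic EBs were not summed. Hnf4a, the nuclear receptor that heads the hepatic and yolk sac programme, stood at 109 RPKM at E12.5 and at 87.1 and 98.4 RPKM at E9.25, and did not pass the test (log2 fold change 0.15 ± 0.62, SE, adjusted p = 0.925).

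The 300-base promoters of 4 genes are printed here as examples for the groups described next. Afp and Alb stand for the secreted proteins, though Afp did not pass the test. Tex19.1 and Lin28a stand for germline-associated genes that went opposite ways. Each runs 5′ to 3′ on the gene's strand from 250 bases before to 50 bases after the start set in the RefSeq promoter table of build GRCm38.p6. For Afp, Alb and Tex19.1 that start is where the annotated gene begins, whereas for Lin28a it lies within the annotated span. Afp lies at chr5:90490464-90490763 (plus strand) and Alb, its neighbour in the albumin cluster, at chr5:90460620-90460919 (plus strand). Capitals in these first sequences mark GTTAATNAT, the core of the motif bound by HNF1 factors, searched on both strands.
Afp: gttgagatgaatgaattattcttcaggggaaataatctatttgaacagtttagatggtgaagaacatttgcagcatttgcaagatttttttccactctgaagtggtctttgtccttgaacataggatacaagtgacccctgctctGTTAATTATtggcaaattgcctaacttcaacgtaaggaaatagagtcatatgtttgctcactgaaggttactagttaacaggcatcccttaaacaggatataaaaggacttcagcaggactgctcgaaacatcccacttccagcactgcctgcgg
Alb: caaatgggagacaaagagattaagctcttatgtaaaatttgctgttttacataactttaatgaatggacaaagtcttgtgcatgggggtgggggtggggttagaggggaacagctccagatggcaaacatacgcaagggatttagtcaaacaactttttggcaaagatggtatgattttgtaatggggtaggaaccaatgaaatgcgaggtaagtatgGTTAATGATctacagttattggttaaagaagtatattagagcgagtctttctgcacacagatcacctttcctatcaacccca
The motif started 105 bases before the gene start in Afp and 32 bases before it in Alb (positions -105 and -32). It was found in 4 of the 14 carrier protein genes with a promoter in the table (Afp, Alb, Gc and Cp) and in 263 of 32851 promoters in all (0.801%). Capitals in the next pair mark CpG dinucleotides. The Tex19.1 promoter is at chr11:121145893-121146192 (plus strand) and that of Lin28a at chr4:134018767-134019066 (minus strand).
Tex19.1: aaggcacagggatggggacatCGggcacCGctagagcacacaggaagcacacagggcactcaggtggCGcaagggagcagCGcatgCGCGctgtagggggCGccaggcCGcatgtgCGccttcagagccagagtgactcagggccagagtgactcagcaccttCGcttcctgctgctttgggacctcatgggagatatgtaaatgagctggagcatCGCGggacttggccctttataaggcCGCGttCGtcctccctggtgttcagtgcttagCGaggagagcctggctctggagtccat
Lin28a: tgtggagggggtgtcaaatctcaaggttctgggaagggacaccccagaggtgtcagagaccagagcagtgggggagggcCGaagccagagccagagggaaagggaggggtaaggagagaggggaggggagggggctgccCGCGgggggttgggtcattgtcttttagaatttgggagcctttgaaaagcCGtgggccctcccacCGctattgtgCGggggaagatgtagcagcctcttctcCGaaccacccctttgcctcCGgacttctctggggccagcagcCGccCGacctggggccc
These windows held 16 CpGs in Tex19.1 and 10 in Lin28a, against a median of 7 over all promoters in the table. A letter match is a description of the window and not a binding site.

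Of 18705 genes tested, 718 were called higher at E12.5 than at E9.25 (3.84%) and 834 were called lower (4.46%) at a false discovery rate of 5% (edgeR's quasi-likelihood test, Benjamini-Hochberg adjustment). With a difference of at least 4-fold as well, 496 genes were higher (2.65%) and 490 were lower (2.62%). The split between directions moved with the scaling: 46.26% of called genes were higher with TMM factors, 58.34% with the median-ratio (RLE) scaling, with 913 higher and 652 lower, and 52.01% with total counts alone, with 778 higher and 718 lower. The median gene stood at a log2 fold change of -0.22 (-0.06 with RLE scaling, -0.15 with total counts), and group medians given below are read against that median. Groups given without a median are read by their shares of calls alone, which moved with the scaling over all genes. Of the 490 genes that fell at least 4-fold, 87 had no read in the E12.5 library. Of the 496 that rose at least 4-fold, 21 had no read in either E9.25 library. The number of calls rested on the E9.25 pair: with A left out, 111 genes were called higher and 136 lower, and with B left out, 135 and 142.

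**Figure D1:**
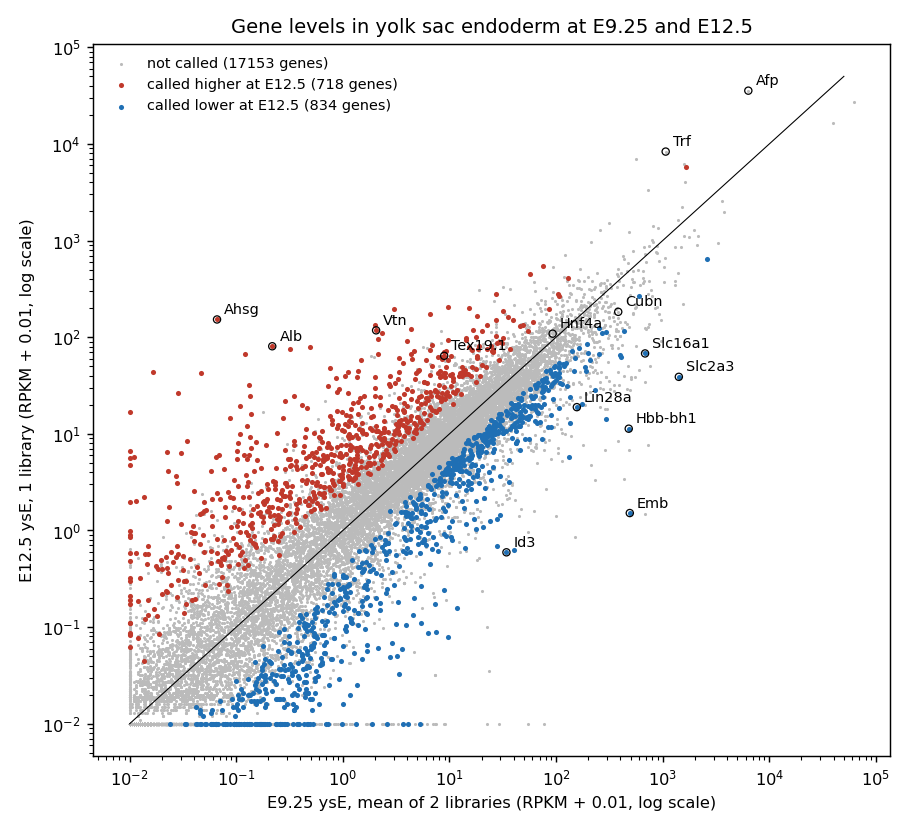
Each point is a tested gene, with its mean RPKM over the 2 E9.25 ysE libraries on the horizontal axis and its RPKM in the E12.5 ysE library on the vertical axis (both RPKM + 0.01 on log scales), coloured where called (718 higher in red, 834 lower in blue), and the line marks equal levels. Afp has the highest E12.5 level, the genes along the bottom edge had no read at E12.5, and Emb and Slc2a3 lie far below the line.

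Alpha-fetoprotein was the most abundant coding transcript of ysE at both stages and took a larger part of the RNA at E12.5. Afp (NM_007423, chr5:90490714-90508907, GRCm38.p6) stood at 35558 RPKM in the E12.5 library and at 6071 and 6628 RPKM in the E9.25 libraries, that is, 7.906% of all counted reads against 1.391% and 1.458%. The E12.5 value was 5.6 times the E9.25 mean and outside the narrow range of the E9.25 pair. Afp did not pass the test over all 11 libraries (log2 fold change 2.40 ± 1.49, SE, adjusted p = 0.35), and it did so once the cystic EBs were left out (2.38, adjusted p = 0.0031). With the EBs kept as 2 groups by ES clone it did not pass (2.40, adjusted p = 0.233).

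Tex19.1, which guards the germline and the placenta against retroelements, was higher at the later stage. Its level (NM_028602, chr11:121146143-121148314) was 64.1 RPKM at E12.5 and 9.39 and 8.41 RPKM at E9.25. The E12.5 library lay far above both earlier ones, while mesoderm held 0.952 and 0.94 RPKM and liver 0.025 and 0.045 RPKM. The log2 fold change was 2.77 ± 0.64 (SE, adjusted p = 0.0311). The call did not hold without E9.25 ysE A (2.91, adjusted p = 0.1445), without E9.25 ysE B (2.72, adjusted p = 0.1544), or without mesoderm A or B (2.77 in both, adjusted p = 0.0558 and 0.0561).

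Of 19 genes of the albumin family, fetuins and other plasma carriers, 11 rose (57.9%, against 3.84% of all genes) and 0 fell, all 11 by at least 4-fold, and the median log2 fold change was 4.47 (4.26 with the gene that has no read in a stage left out). Summed, this group held 47295 RPKM at E12.5 and 9200 and 10367 RPKM at E9.25, most of it Afp and Trf. Trf (transferrin, the plasma iron carrier) stood at 8328 RPKM against 993 and 1138 RPKM, and Ttr (transthyretin, which carries thyroxine and retinol-binding protein) at 2211 against 1412 and 1652 RPKM. Neither passed the test (log2 fold change 2.88, adjusted p = 0.203, and 0.45, adjusted p = 0.804).

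Ahsg, which encodes fetuin-A, an inhibitor of calcium precipitation in serum, had the largest rise among the carriers. It stood at 152 RPKM at E12.5 and at 0.04 and 0.072 RPKM at E9.25 (log2 fold change 11.28 ± 1.02, SE, adjusted p = 0.0011). The E9.25 libraries held next to none, and the E12.5 level was above both liver libraries (46.9 and 115 RPKM). Alb, encoding serum albumin, stood at 80.5 RPKM against 0.221 and 0.194 RPKM (8.51 ± 1.99, SE, adjusted p = 0.0318). Unlike Ahsg, it was below both liver libraries (358 and 767 RPKM), so at E12.5 Afp exceeded Alb in ysE by more than it did in liver, where Afp was at 1396 and 2471 RPKM. Ahsg overlaps a predicted gene on the other strand, whose reads the E12.5 library cannot separate, whereas Alb and Afp overlap none.

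Other carriers also rose. Gc, the vitamin D-binding protein, stood at 198 RPKM against 3.3 and 2.73 RPKM (5.95, adjusted p = 0.0198). Hpx (hemopexin, which binds free haem) stood at 78.2 RPKM against 0.492 and 0.479 RPKM (7.25 ± 0.82, SE, adjusted p = 0.00229). Fetub (fetuin-B) was at 4.14 RPKM against 0.005 and 0.021 RPKM (8.05, adjusted p = 0.00382), and Cp (ceruloplasmin, the copper-carrying ferroxidase) at 4.07 against 0.059 and 0.038 RPKM (6.31, adjusted p = 0.0144).

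Of 26 genes of apolipoproteins and lipoprotein assembly, 1 rose (3.85%, near the 3.84% of all genes) and 0 fell, and their median was 0.22. The gene that rose was Apoh (beta-2-glycoprotein I, a phospholipid-binding plasma protein), at 66.5 RPKM against 0.12 and 0.099 RPKM (9.16 ± 0.90, SE, adjusted p = 0.00123). Apoa1, the main protein of high-density lipoprotein, held 4059 RPKM at E12.5 and 1435 and 1806 RPKM at E9.25 (1.24, adjusted p = 0.344). Apob, the scaffold of lipoproteins that leave the endoderm, held 968 against 889 and 725 RPKM (0.18, adjusted p = 0.939). The E12.5 level of Apob was within about the distance that separates the E9.25 libraries from each other.

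Among 28 genes of coagulation and fibrinolysis, 5 rose (17.9%, against 3.84% of all genes) and 0 fell (against 4.46%), with a median of 2.03 (1.97 with bounds in place of genes at 0 in a stage). F11 (coagulation factor XI) had 0 reads in both E9.25 libraries and stood at 5.60 RPKM at E12.5. It was at least 1245-fold higher, counting 3 reads over both E9.25 libraries as the floor (adjusted p = 0.00266), and it too overlaps a predicted gene on the other strand. Serpina5 (the protein C inhibitor) was at 6.39 RPKM against 0.015 and 0.026 RPKM (8.13, adjusted p = 0.00586), and F13b (the carrier subunit of factor XIII) at 9.15 against 0.683 and 0.507 RPKM (3.86, adjusted p = 0.0145). Serpinc1 (antithrombin) was present early and rose less, from 10.1 and 11.7 to 35.5 RPKM (1.62, adjusted p = 0.0386). The fibrinogen chains Fgb, Fgg and Fga were among the 20 most abundant coding transcripts at E12.5, at 1508, 1276 and 971 RPKM. Their log2 fold changes of 2.19, 2.23 and 2.10 did not pass the test (adjusted p = 0.208, 0.214 and 0.322).

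Complement genes gave 7 rises (25%, against 3.84% of all genes) and 2 falls (7.14%, against 4.46%) among 28, with a median of 0.86 (1.39 with bounds). Vtn (vitronectin, which blocks the terminal complex) stood at 118 RPKM against 1.71 and 2.37 RPKM (5.77 ± 0.48, SE, adjusted p = 0.00105). C4b was at 16 RPKM against 0.144 and 0.112 RPKM (6.88, adjusted p = 0.00393), C3, the central component, at 94.7 against 2.99 and 1.26 RPKM (5.39, adjusted p = 0.0329), and C2 at 32.9 against 2.63 and 2.79 RPKM (3.52, adjusted p = 0.00264). C6, of the membrane attack complex, reached 1.98 RPKM at E12.5 with 0 reads at E9.25 (at least 555.7-fold higher, adjusted p = 0.00217). The falls were C8a, another membrane attack component, at 0.006 RPKM against 1.03 and 0.93 RPKM (-7.28, adjusted p = 0.0132), and Masp1, a protease of the lectin pathway, which was under 1 RPKM in all 3 ysE libraries.

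**Figure D2:**
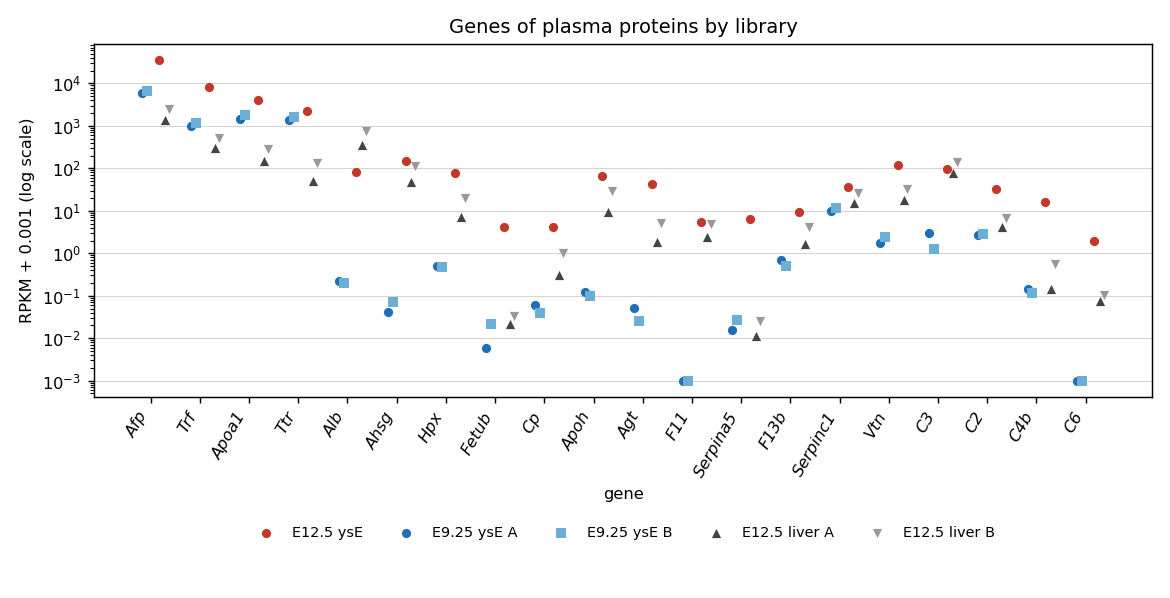
RPKM + 0.001 on a log scale for 20 genes of secreted plasma proteins, with 1 point each for the E12.5 ysE library, both E9.25 ysE libraries and both E12.5 liver libraries. Ahsg, Apoh and Agt lie under 0.5 RPKM in both E9.25 ysE libraries and above 40 RPKM at E12.5, whereas Afp, Trf, Apoa1 and Ttr are abundant at both stages.

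The 12 coding genes with the largest rises among those with at least 5 RPKM at E12.5 included the secreted Ahsg, Alb, Apoh and F11, and Agt (angiotensinogen, the precursor of angiotensin), at 42.8 RPKM against 0.05 and 0.024 RPKM (10.11 ± 1.08, SE, adjusted p = 0.0017). Cyp21a1, the steroid 21-hydroxylase of the adrenal cortex, stood at 43.8 RPKM against 0.013 and 0 RPKM (adjusted p = 0.00196). From its 3 early reads the ratio was 8331, with an exact 95% counting interval of 2849 to 40420. Such an interval covers the counting of reads alone, and neither spread between samples nor library protocol. Both liver libraries held little Cyp21a1 (0.052 and 0.293 RPKM).

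Of the other large rises, Ugt8a, a galactosyltransferase of myelin lipid synthesis, stood at 5.74 RPKM against 0 and 0.002 RPKM (1 read in all, ratio 6131, interval 1098 to 242400, adjusted p = 0.00751). BC021614 and Phgr1 had no read at E9.25 and stood at 16.7 and 6.64 RPKM at E12.5 (at least 1118-fold and 355.9-fold higher, adjusted p = 0.00429 and 0.019). Slc17a1, a renal phosphate and urate transporter, was at 6.45 RPKM against 0.025 and 0 RPKM (9.06, adjusted p = 0.0128), and Hpd, of tyrosine breakdown, at 8.49 against 0.049 and 0 RPKM (8.46, adjusted p = 0.009). Gm648, which has no established role, stood at 26.5 RPKM against 0.016 and 0.021 RPKM (10.28, adjusted p = 0.0134).

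Genes of cholesterol synthesis and its control were higher at E12.5 as a group: of 33, 16 rose and 0 fell, 12 of them by at least 4-fold, against 3.84% of all genes higher. Their median log2 fold change was 1.65, 31 of the 33 were above 0, and their summed level was 1199 RPKM at E12.5 and 322 and 349 RPKM at E9.25. Insig1, a control gene of the pathway, which holds the SREBP precursor in the endoplasmic reticulum, was at 43.6 RPKM against 4.05 and 2.64 RPKM (3.62, adjusted p = 0.0011).

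Enzymes of the pathway rose too. Cyp51, the lanosterol demethylase, stood at 66.5 RPKM against 4.53 and 4.22 RPKM (3.84, adjusted p = 0.00123), and Sqle, the squalene epoxidase, at 33.9 against 3.21 and 2.96 RPKM (3.37, adjusted p = 0.00264). In both, the E12.5 value was far outside the E9.25 pair. Srebf2, the regulator of the pathway, stood at 15.4 against 5.61 and 7.08 RPKM and just missed the threshold (1.20, adjusted p = 0.0618).

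**Figure D3:**
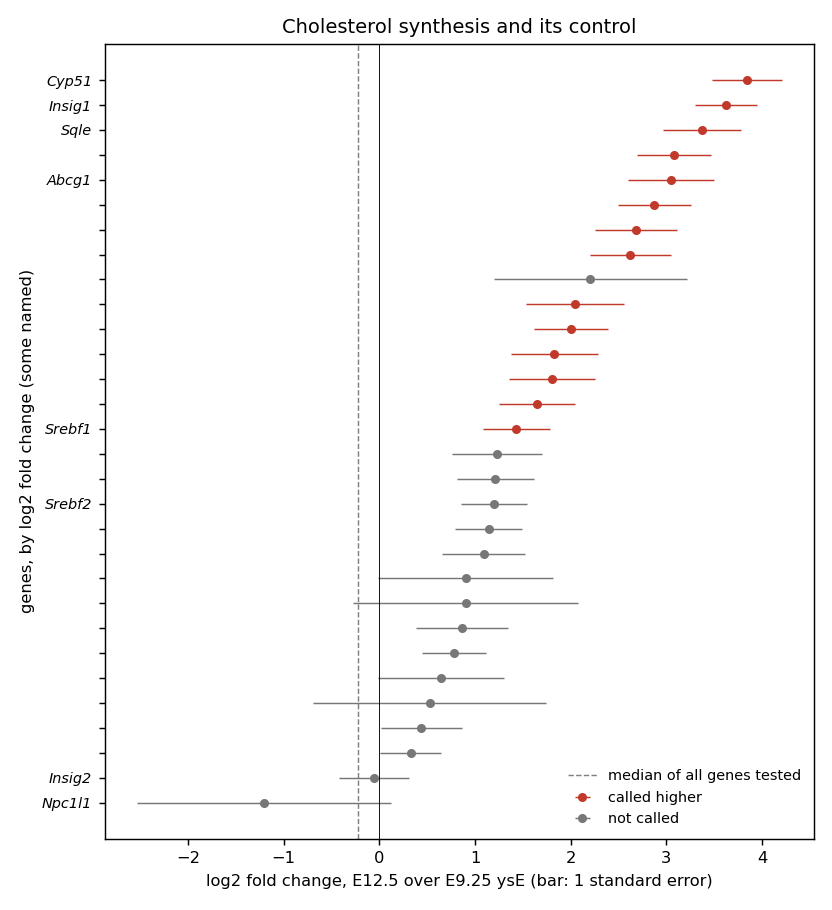
Log2 fold change from E9.25 to E12.5 ysE (points) of 30 of the 33 genes of cholesterol synthesis and its control, ranked by their change. Bars are 1 approximate standard error, derived from the F statistic of the edgeR test. Called genes are in red, some genes are named, and a dashed line marks the median of all genes tested. The 14 called genes drawn lie between 1.43 (Srebf1) and 3.84 (Cyp51), and Insig2 and Npc1l1 are the genes below 0.

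Genes of uptake and degradation were called in both directions. Of 28 endocytic receptor and vesicle genes, 3 rose (10.7%, against 3.84% of all genes) and 4 fell (14.3%, against 4.46%), with a median of -0.13, above the median gene except on the log2(RPKM + 1) scale. Cubn (cubilin, the receptor for many filtered proteins) was at 183 RPKM against 336 and 429 RPKM (-1.15, adjusted p = 0.399), its partner Amn at 115 against 174 and 249 RPKM (-0.97, adjusted p = 0.531), and Lrp2 (megalin) at 253 against 85.9 and 96.1 RPKM (1.39, adjusted p = 0.102). None of these receptors passed the test, and the E12.5 library lay below both E9.25 libraries for Cubn and above both for Lrp2. Fcgrt, the heavy chain of the neonatal Fc receptor that carries IgG across epithelia, rose from 64.7 and 84.7 to 543 RPKM (2.78 ± 0.66, SE, adjusted p = 0.033). Pdzk1ip1, a small membrane protein of proximal tubule and epithelia, rose from 6.27 and 7.32 to 82.8 RPKM (3.52, adjusted p = 0.0212).

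Falls in that group were of mixed kind. Rab7, of late endosomes, was at 11.2 RPKM against 29.0 and 32.8 RPKM (-1.55, adjusted p = 0.0409). Ap2m1, a clathrin adaptor subunit, stood at 8.89 against 71.5 and 76.1 RPKM (-3.14, adjusted p = 0.0221). Stab2, a hyaluronan receptor of sinusoidal endothelium, was at 0.04 RPKM against 2.49 and 3.99 RPKM (-6.42, adjusted p = 0.00631), and E9.25 mesoderm held 65.6 and 61.7 RPKM of it. Lysosomal enzymes gave 4 rises (13.3%, against 3.84% of all genes) and 0 falls among 30, all under 4-fold, with a median of 0.13. Scarb2 (the carrier of glucocerebrosidase) rose from 10.48 and 11.1 to 37.6 RPKM (1.72, adjusted p = 0.0083), Npc2 (lysosomal cholesterol export) from 29.8 and 33.7 to 97.3 RPKM (1.53, adjusted p = 0.0145), and Ctsd (cathepsin D) from 96.9 and 111 to 281 RPKM (1.35, adjusted p = 0.0321). Of 18 subunits of the V-ATPase, the proton pump that acidifies lysosomes, 0 rose, 2 fell (11.1%, against 4.46% of all genes) and 16 were not called. Those that fell were Atp6v1a from 113 and 101 to 54.0 RPKM (-1.07, adjusted p = 0.0489) and Atp6v1c1 from 91.1 and 89.6 to 42.8 RPKM (-1.16, adjusted p = 0.0483).

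Iron and haem handling had 5 rises, all by at least 4-fold, and 0 falls among 21 genes (23.8% higher, against 3.84% of all genes), while the median of the group was 0.25 (0.28 with bounds). Heph (hephaestin, the membrane ferroxidase of iron export) stood at 38.3 RPKM against 1.16 and 1.54 RPKM (4.74 ± 0.55, SE, adjusted p = 0.00232). Hmox1 (haem oxygenase) was at 166 against 16.3 and 19.6 RPKM (3.12, adjusted p = 0.00272), and Steap3 (a ferrireductase of endosomes) at 9.16 against 0.348 and 0.508 RPKM (4.33, adjusted p = 0.00119). Hfe, the regulator mutated in haemochromatosis, stood at 4.12 RPKM against 0.126 and 0.149 RPKM (4.81, adjusted p = 0.00264), and Slc48a1, a haem transporter, at 4.2 against 0.633 and 0.874 RPKM (2.39, adjusted p = 0.0167). The exporter Slc40a1 (ferroportin), added after its values were seen, held 33.8 RPKM against 28.8 and 33.3 RPKM (0.04 ± 0.46, SE).

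Carriers of small molecules changed in both directions. Among 33 amino acid and peptide transporters, 7 rose (21.2%, against 3.84% of all genes) and 5 fell (15.2%, against 4.46%), with a median of -0.16 (-0.09 with bounds). Slc38a3, a glutamine transporter, stood at 12.2 RPKM against 0.093 and 0.139 RPKM (6.62 ± 0.80, SE, adjusted p = 0.00264), Slc3a1, of cystine transport, at 11.1 against 0.338 and 0.537 RPKM (4.58, adjusted p = 0.00128), and Slc1a1, a glutamate transporter, at 15.7 against 1.08 and 1.04 RPKM (3.80, adjusted p = 0.00207). Slc16a10, an exporter of aromatic amino acids, fell from 7.41 and 7.44 to 1.35 RPKM (-2.55, adjusted p = 0.00367). Of 24 genes of metal ion transport and binding, 3 rose, a share above the 3.84% of all genes, and 2 fell (8.33%, against 4.46%). The rises were Slc30a2, a zinc transporter, at 10.8 RPKM against 0.607 and 0.652 RPKM (4.01, adjusted p = 0.00261), Trpv6, an epithelial calcium channel, at 20.8 against 1.28 and 1.17 RPKM (4.0, adjusted p = 0.00501), and Mt2, a metallothionein, at 453 against 54.8 and 59.1 RPKM (2.91, adjusted p = 0.0309). Slc39a10, a zinc importer, fell from 10.7 and 8.96 to 1.08 RPKM (-3.27, adjusted p = 0.00257).

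Transporters of sugars and monocarboxylates included some of the most abundant transcripts that fell. Of 35 in the list, 2 rose (5.71%, against 3.84% of all genes) and 6 fell (17.1%, against 4.46%), with a median of -0.49 (-0.32 with bounds), and their summed level was 545 RPKM at E12.5 and 3084 and 3280 RPKM at E9.25. Slc2a3 (NM_011401, chr6:122727809-122802363), the high-affinity glucose transporter GLUT3, stood at 38.9 RPKM at E12.5 and at 1328 and 1504 RPKM at E9.25. It was among the most abundant transcripts of early ysE, exceeded its level in mesoderm (115 and 204 RPKM), and fell at E12.5 (-5.27 ± 0.64, SE, adjusted p = 0.00272). Slc2a2 (GLUT2) fell from 294 and 288 to 14.1 RPKM (-4.45 ± 0.81, SE, adjusted p = 0.0132), and Slc2a1 (GLUT1) from 243 and 267 to 67.0 RPKM (-2.01, adjusted p = 0.0152). These 3 glucose transporters were far lower in the E12.5 library than in either E9.25 library, which lay close together.

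The lactate transporters went opposite ways: Slc16a1 (MCT1) fell from 714 and 651 to 67.9 RPKM (-3.41 ± 0.56, SE, adjusted p = 0.0087), and Slc16a3 (MCT4) rose from 1.21 and 1.05 to 13.7 RPKM (3.52 ± 0.27, SE, adjusted p = 0.000986). Slc13a4, a sulphate transporter, fell from 75.8 and 93.1 to 11.8 RPKM (-2.93, adjusted p = 0.0377), and Slc5a11, an inositol transporter, from 10.7 and 12.46 to 2.33 RPKM (-2.40, adjusted p = 0.0318). In glycolysis and gluconeogenesis themselves 5 of 34 genes rose (14.7%, against 3.84% of all genes) and 1 fell (2.94%, against 4.46%). Fbp2 (a fructose bisphosphatase) rose from 22.4 and 22.4 to 133 RPKM (2.49, adjusted p = 0.0223), Pfkp (platelet phosphofructokinase) rose from 12.7 and 13.4 to 39.6 RPKM (1.52, adjusted p = 0.04), and Pfkm (the muscle form) fell from 10.0 and 11.3 to 3.11 RPKM (-1.86, adjusted p = 0.0222). Fatty acid oxidation and ketone synthesis had 3 rises (12%, against 3.84% of all genes) and 0 falls among 25. Acsl5, an acyl-CoA synthetase, rose from 26.4 and 22.1 to 81.8 RPKM (1.67 ± 0.37, SE, adjusted p = 0.0263), and Echs1, an enoyl-CoA hydratase of mitochondria, from 30.5 and 32.2 to 87.5 RPKM (1.4, adjusted p = 0.0273).

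**Figure D4:**
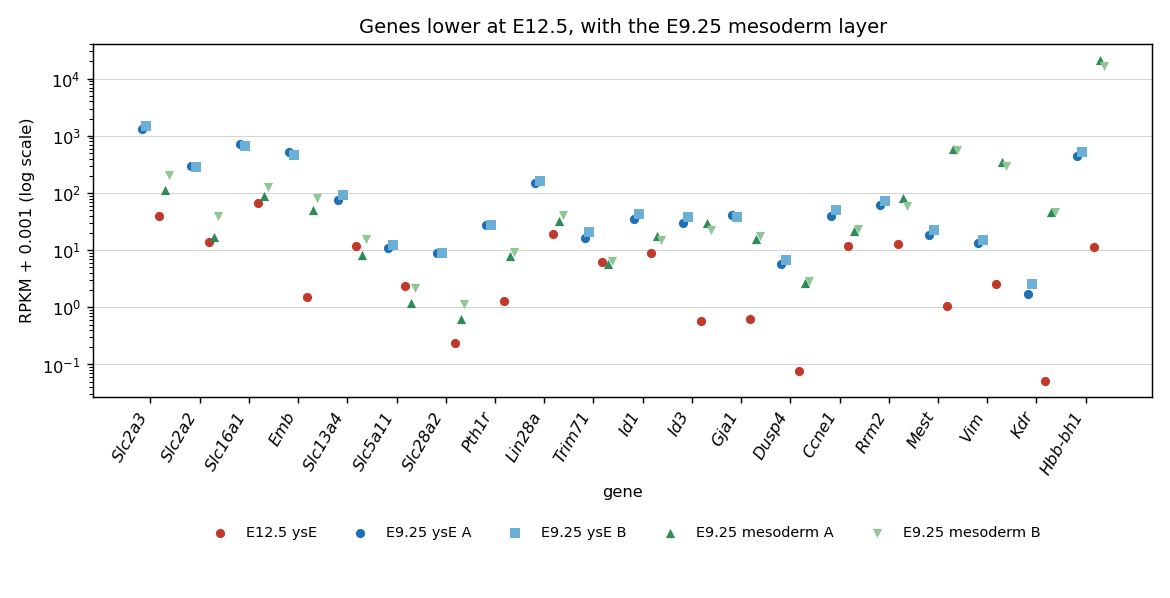
RPKM + 0.001 on a log scale of 20 genes that fell, with 1 point each for the E12.5 ysE library, both E9.25 ysE libraries and both E9.25 mesoderm libraries. Emb drops from 513 and 469 RPKM to 1.504 RPKM, Slc2a3, Slc2a2 and Lin28a are lower in mesoderm than in E9.25 ysE, and Mest, Vim, Kdr and Hbb-bh1 are higher in mesoderm.

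Emb (NM_010330, chr13:117220573-117274415), encoding embigin, a membrane partner of monocarboxylate transporters, had the largest fall among coding genes with at least 5 RPKM in both E9.25 libraries. It stood at 1.504 RPKM at E12.5 and at 513 and 469 RPKM at E9.25, a 326-fold difference in RPKM (log2 fold change -8.43 ± 0.76, SE, adjusted p = 0.0011). Mesoderm held 49.8 and 80.8 RPKM. Gja1 (connexin 43, a gap junction channel) fell from 41.2 and 38.7 to 0.612 RPKM (-6.11 ± 0.62, SE, adjusted p = 0.00142), Dusp4 (a phosphatase of MAP kinases) from 5.81 and 6.84 to 0.076 RPKM (-6.45, adjusted p = 0.00376), and Slc28a2 (a nucleoside transporter) from 8.81 and 9.04 to 0.232 RPKM (-5.35, adjusted p = 0.00609). Mfap3l fell from 7.82 and 6.87 to 0.165 RPKM (-5.56, adjusted p = 0.00232), Gm10639, a predicted gene, from 7.64 and 7.24 to 0.08 RPKM (-6.61, adjusted p = 0.0136), and Prap1, a secreted protein of uterus and gut, from 15.9 and 7.42 to 0.149 RPKM (-6.36, adjusted p = 0.0496). Ctla2a, Hbb-bh1 and Erh, also among the 12 largest falls, stood higher in E9.25 mesoderm than in E9.25 ysE. Mesoderm A and B differed widely for Prap1 (12.4 and 1.87 RPKM) and for Ctla2a (111 and 24.0 RPKM).

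Detoxifying enzymes included several of the larger rises. Of 52 cytochrome P450 and phase 2 genes, 7 rose (13.5%, against 3.84% of all genes) and 1 fell (1.92%, against 4.46%), with a median of 0.85 (1.04 with bounds). Mgst1, a microsomal glutathione transferase, stood at 74.8 RPKM against 0.382 and 0.243 RPKM (7.82 ± 0.94, SE, adjusted p = 0.00264), and Gsta3, a cytosolic one, at 110 against 2.42 and 2.17 RPKM (5.49, adjusted p = 0.00826). Aldh1l1, of folate metabolism, was at 21.7 RPKM against 0.244 and 0.311 RPKM (6.20 ± 0.44, SE, adjusted p = 0.000986), and Ephx1, the microsomal epoxide hydrolase, at 6.03 against 0.096 and 0.147 RPKM (5.53, adjusted p = 0.00193). Gsta4 fell from 15.5 and 15.6 to 5.76 RPKM (-1.52, adjusted p = 0.0173). Retinoid transport and metabolism had 0 rises and 1 fall among 25 (4.0%, near the 4.46% of all genes, median -1.29, -0.97 with bounds): Rdh10, which makes retinal from retinol, fell from 15.4 and 14.2 to 3.23 RPKM (-2.28, adjusted p = 0.0201).

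Structural genes of the epithelium were called in both directions. Of 38 brush border and junction genes, 4 rose, a share above the 3.84% of all genes, and 1 fell (2.63%, against 4.46%). Ggt1, the brush border glutamyltransferase, rose from 3.77 and 5.08 to 59.2 RPKM (3.66, adjusted p = 0.0165), Krt19, an epithelial keratin, from 18.3 and 22.2 to 117 RPKM (2.44, adjusted p = 0.0196), and Alpl, an alkaline phosphatase, from 1.74 and 2.15 to 5.89 RPKM (1.52, adjusted p = 0.0267). In the basement membrane, 3 of 28 genes rose and 3 fell (10.7% each, against 3.84% and 4.46% of all genes). Lamb3, a laminin beta chain of epithelia, stood at 24.5 RPKM against 0.359 and 0.312 RPKM (6.10 ± 0.51, SE, adjusted p = 0.00105), and Lamb2, another laminin beta chain, at 40.7 against 5.60 and 7.41 RPKM (2.56, adjusted p = 0.00585). Fn1 (fibronectin) rose from 38.3 and 54.1 to 131 RPKM (1.42, adjusted p = 0.0405), and Nid2 (nidogen 2) fell from 18.2 and 22.0 to 4.62 RPKM (-2.20, adjusted p = 0.0218). Lamb3 overlaps a predicted gene on the other strand.

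Of 44 transcription factors of the endoderm, 1 rose (2.27%) and 2 fell (4.55%), shares near those of all genes (3.84% and 4.46%), with a median of -0.06. The rise was Cebpa, which drives hepatic metabolic genes, at 37.0 RPKM against 4.08 and 5.44 RPKM (2.88 ± 0.56, SE, adjusted p = 0.0163). Id1, a target of BMP signalling, fell from 35.3 and 42.5 to 9.01 RPKM (-2.19, adjusted p = 0.0462). Among 47 genes of Hedgehog, Wnt and BMP signalling, 0 rose and 6 fell (12.8%, against 4.46% of all genes), with a median of -0.53 (-0.47 with bounds). Only Id1 and its relative Id3 among these were above 1 RPKM at E9.25, Id3 at 30.5 and 37.9 RPKM against 0.584 RPKM at E12.5 (-5.95 ± 1.31, SE, adjusted p = 0.0252). Mesoderm held 30.3 and 22.8 RPKM of Id3. Of 30 genes of the early and anterior visceral endoderm, 1 rose and 2 fell (3.33% and 6.67%, against 3.84% and 4.46% of all genes). Pth1r, the receptor for parathyroid hormone-related protein known from parietal endoderm, fell from 27.9 and 27.7 to 1.29 RPKM (-4.51 ± 0.68, SE, adjusted p = 0.00661), and Pcsk6, a protease that cleaves Nodal, rose from 0.242 and 0.249 to 2.07 RPKM (2.99, adjusted p = 0.0108).

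Cell cycle genes had 0 rises and 4 falls among 57 (7.02%, against 4.46% of all genes), with a median of -0.48. Ccne1 (cyclin E1) fell from 40.0 and 49.98 to 12.01 RPKM (-1.99, adjusted p = 0.0325), Rrm2 (a ribonucleotide reductase subunit made in S phase) from 60.4 and 71.2 to 13 RPKM (-2.42, adjusted p = 0.031), and Ccnd3 (cyclin D3) from 16.2 and 23.0 to 6.74 RPKM (-1.62, adjusted p = 0.0357). Ccnd1 (cyclin D1) was low in ysE, at 0.611 against 1.53 and 1.69 RPKM (-1.48, adjusted p = 0.0401), and high in mesoderm (37.2 and 36.9 RPKM).

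Among 21 genes that set or remove DNA methylation, 0 rose and 1 fell (4.76%, near the 4.46% of all genes). That gene was Hells, a remodeller needed for methylation of repeats, at 10.3 RPKM against 38.4 and 24.8 RPKM (-1.70, adjusted p = 0.0193). The maintenance enzyme Dnmt1 stood at 51.2 RPKM against 40.3 and 41.9 RPKM (adjusted p = 0.722), the de novo enzyme Dnmt3a at 11.7 against 13.1 and 12 RPKM (adjusted p = 0.713), and Dnmt3b at 2.24 against 7.39 and 8.21 RPKM (-1.88, adjusted p = 0.0884). No member of 28 Polycomb and H3K9 methylation genes was called in either direction. The medians of these lists, -0.19 (-0.0066 with bounds) and -0.20, were close to that of all genes and fell below it on the log2(RPKM + 1) scale.

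In the list of germline and retroelement defence genes, 2 of 30 rose (6.67%, against 3.84% of all genes) and 4 fell (13.3%, against 4.46%). Beside Tex19.1 the other rise was Tdrkh, a piRNA pathway protein, from 0.594 and 0.646 to 1.67 RPKM (1.35, adjusted p = 0.043). Lin28a (NM_145833, chr4:134003330-134019196), the RNA-binding protein that blocks let-7 maturation, fell from 152 and 161 to 18.9 RPKM (-3.13 ± 0.56, SE, adjusted p = 0.0123). Its E9.25 ysE level was above that of mesoderm (32.7 and 41.8 RPKM). Trim71, itself a let-7 target of early embryos, fell from 16.5 and 20.7 to 6.31 RPKM (-1.64, adjusted p = 0.0444), and Samhd1, a dNTP hydrolase, from 17.2 and 19.7 to 7.44 RPKM (-1.39, adjusted p = 0.0415).

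Of 57 imprinted genes, 3 rose (5.26%, against 3.84% of all genes) and 4 fell (7.02%, against 4.46%), with a median of 0.05. The most abundant, H19, a long non-coding RNA, stood at 6131 RPKM against 1520 and 1647 RPKM (1.87, adjusted p = 0.377), and its neighbour Igf2, the fetal growth factor, at 296 against 98.5 and 89.1 RPKM (1.57, adjusted p = 0.121). Both E12.5 values were above both E9.25 values without passing the test. Gnas, encoding the stimulatory G protein, rose from 59.2 and 63.0 to 145 RPKM (1.16, adjusted p = 0.0298), and Sgce, a sarcoglycan, from 20.5 and 20.1 to 51.3 RPKM (1.25, adjusted p = 0.0498). Mest fell from 18.4 and 22.9 to 1.07 RPKM (-4.36, adjusted p = 0.00686) and Cd81, a tetraspanin, from 35.7 and 39.5 to 14.5 RPKM (-1.46, adjusted p = 0.0165). Mest stood at 586 and 566 RPKM in E9.25 mesoderm. In the insulin-like growth factor system, 1 of 25 genes rose (4.0%, against 3.84% of all genes) and 4 fell (16%, against 4.46%): Insr, the insulin receptor, rose from 4.24 and 4.96 to 13.1 RPKM (1.43, adjusted p = 0.0294), and Igf2bp2, which binds Igf2 RNA, fell from 43.2 and 43.9 to 13.7 RPKM (-1.76, adjusted p = 0.0311).

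Markers of the underlying mesoderm and blood were lower in the E12.5 library, beside the falls given above. Of 24 endothelium and mesoderm markers, 0 rose and 7 fell (29.2%, against 4.46% of all genes), none was above 0 in log2 fold change, and the median was -2.65 (-2.60 with bounds). Their summed level was 38.1 RPKM at E12.5 and 72.1 and 105 RPKM at E9.25, which is 1.47% and 2.79% and 4.08% of the mean of the mesoderm libraries. Kdr (the VEGF receptor of endothelium) stood at 0.051 RPKM against 1.71 and 2.58 RPKM (-5.47, adjusted p = 0.0459), and Vim (vimentin) at 2.59 against 13.4 and 15.1 RPKM (-2.54, adjusted p = 0.009). Of 19 erythroid markers, 0 rose and 7 fell (36.8%, against 4.46% of all genes), with a median of -1.95 and a summed level of 261 RPKM against 952 and 1134 RPKM (0.603% and 2.20% and 2.62% of mesoderm). Hbb-bh1, an embryonic globin, stood at 11.3 RPKM against 444 and 516 RPKM (-5.49, adjusted p = 0.0431).

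Genes that were at least 4 times higher in E9.25 mesoderm than in E9.25 ysE made up 51.63% of the genes that fell at least 4-fold (253 of 490) and 22.33% of all tested. They also made up 29.03% of the genes that rose at least 4-fold (144 of 496). Without these mesoderm-high genes, 554 genes were called higher and 557 lower, 352 and 237 by at least 4-fold. In bulk samples, fewer cells of a type and less RNA per cell cannot be told apart. The part of carried-over mesoderm in the falls of single genes was not tested further. Of 19 macrophage and leukocyte markers, 1 rose (5.26%, against 3.84% of all genes) and 0 fell, 4 were above 0 in log2 fold change, the median was -1.71 (-1.36 with bounds), and they summed to 11.2 RPKM against 7.43 and 7.60 RPKM. Parietal endoderm markers had 0 rises and 3 falls among 12 (25%, against 4.46% of all genes, median -3.84, -2.07 with bounds), although their sum was 457 RPKM against 308 and 348 RPKM. Trophoblast and decidua markers had 0 calls among 19, 11 of which had no read in a stage, with a median of -3.54 (-2.45 with bounds). They summed to 39.8 RPKM at E12.5 and to 66.2 and 96.8 RPKM at E9.25. In E9.25 mesoderm the sums of A and B lay far apart, at 370 and 31.7 RPKM.

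Of 30 immediate-early and dissociation response genes, which can be induced during tissue digestion, 4 rose (13.3%, against 3.84% of all genes) and 1 fell (3.33%, against 4.46%), with a median of 0.12 (0.24 with bounds). Dusp1, a MAP kinase phosphatase, stood at 4.47 RPKM against 0.768 and 0.646 RPKM (2.57, adjusted p = 0.0192), and Gadd45b, a stress gene, at 10.95 against 1.81 and 1.90 RPKM (2.48, adjusted p = 0.0191). The list's summed level was 188 RPKM against 132 and 158 RPKM. A list of RNAs without a poly(A) tail and small structured RNAs had 0 rises and 1 fall among 37 (2.7%, against 4.46% of all genes), with a median of -1.54. The list also held spliced host transcripts of small RNAs, and the fall, Gas5, was of that kind. Of 85 ribosomal protein genes, 0 rose and 3 fell (3.53%, below the 4.46% of all genes), while their median log2 fold change was -3.19, and they summed to 7124 RPKM at E12.5, 27290 and 29330 RPKM in E9.25 ysE, 42200 and 37630 RPKM in E9.25 mesoderm, made with the same library protocol as E9.25 ysE, and 10730 and 13990 RPKM in E12.5 liver. Among 324 genes with a named pseudogene copy, 3 rose and 33 fell (10.19%, against 4.46% of all genes, median -1.61). Only pseudogenes named after their gene were searched, so copies under other names were not caught. How reads that match several places were counted is not given in the sources used here, and genes with copies, such as Ap2m1 and Rab7 (named pseudogenes) and Hbb-bh1 (a globin family), are uncertain for that reason. Without ribosomal protein genes and genes with named copies, 715 genes were called higher and 801 lower. Of 112 rule-named genes with a RefSeq start, 31 overlap a gene on the other strand, Erh and Rab7 among them. Not all of these are marked where they are named, so a missing mark does not mean no overlap. Over all tested genes with a known strand, 30.57% do. Among 4371 genes that overlap a gene on the other strand, 199 rose (4.55%) and 184 fell (4.21%), with a median of -0.14. Among 9929 without such overlap, 363 rose (3.66%) and 456 fell (4.59%), with a median of -0.23. Over all genes the shares were 3.84% and 4.46%. Whether the missing strand of the E12.5 library lies behind this was not tested.

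**Figure D5:**
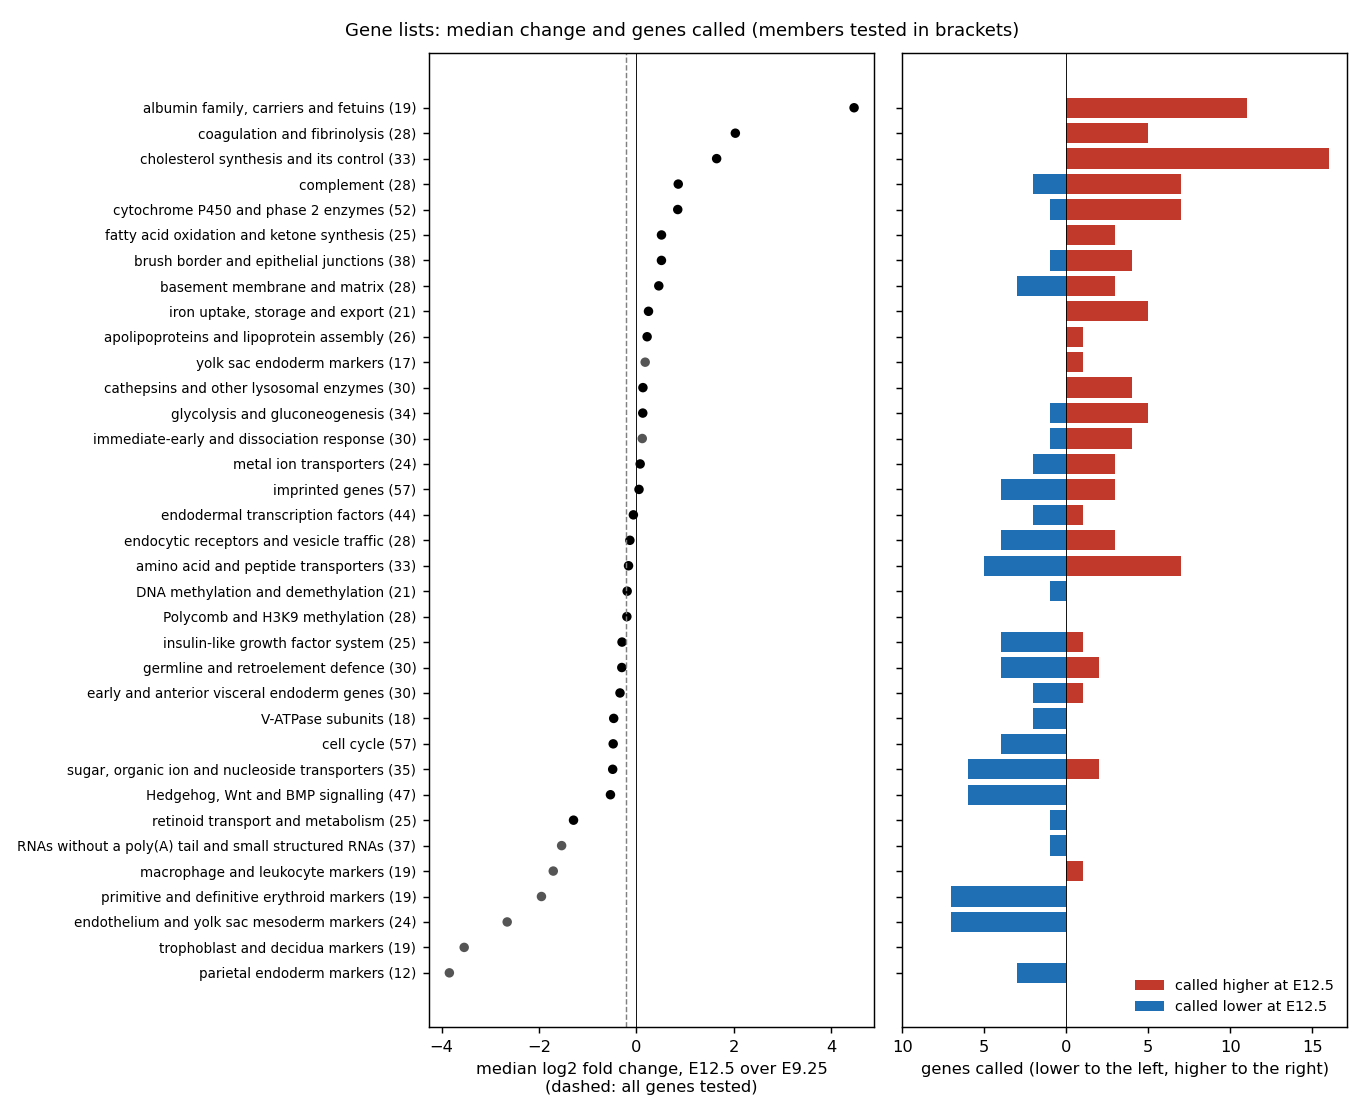
For each gene list, the left panel gives the median log2 fold change from E9.25 to E12.5 ysE (TMM scaling, dashed line at the median of all genes, -0.22) and the right panel the number of genes called lower (blue) and higher (red), with the members tested in brackets. The carriers (4.47), coagulation genes (2.03) and cholesterol genes (1.65) have the highest medians, and markers of parietal endoderm, trophoblast and mesoderm have the lowest (-3.84, -3.54 and -2.65, or -2.07, -2.45 and -2.60 with genes at 0 set at their bound, which changes their order).

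The promoters of called genes were compared with chromatin of the later stage, for which the series holds 1 H3K4me3 ChIP-seq sample of whole E12.5 VYS and bisulfite sequencing of 2 samples of E12.5 ysE, 1 from a CastxFVB cross (CxF) and 1 from its reciprocal (FxC). H3K4me3 marks active or poised promoters. No such data were used for E9.25. Of 14300 tested genes with a RefSeq start, 75.34% had a peak within 1 kb. That share was 84.7% among genes called higher and 90.31% among genes called lower, so most genes that fell had a peak in the E12.5 tissue, which includes the mesoderm. All 18705 tested genes include 2707 without a read at E12.5. At least 1 RPKM at E12.5 was reached by 601 of 718 genes called higher, 398 of 834 called lower and 10402 of all tested. Peak shares were not compared at matched expression, so an excess over all tested genes may reflect level alone. With the upper 50% of peaks by score, the share was 60.85% for genes called higher, 71.88% for genes called lower and 61.17% for all tested, so the higher genes no longer exceeded all genes. Genes at least 4-fold higher had a peak in 78.31% of cases, and a peak of the upper 50% in 46.03%. Genes at least 4-fold lower had one in 84.27% and 54.21%, so both 4-fold groups were below all genes for the upper 50% of peaks. Peaks overlapped the starts of Afp, Alb, Ahsg, Apoh, Gc, F11, Tex19.1, Lin28a and Emb, that is, of genes that rose, genes that fell and Afp.

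CpG methylation was measured at low depth, with a mean of 2.204 and 1.794 reads per covered CpG in CxF and FxC, and intervals are not given per gene. With at least 5 reads per CpG, the median methylation within 1 kb of the start was 40.0% in CxF for genes called higher (97 genes), 28.57% for genes called lower (109) and 40.0% for all tested (2556). In FxC the medians were 10.0%, 0.0% and 20% (34, 49 and 1018 genes). With all reads over a gene's start summed and at least 20 required, CxF gave 40.93%, 25.9% and 32.0%, and FxC 31.82%, 34.06% and 30.43%, so that genes called lower were below all genes in CxF and above them in FxC. For single genes, 37 summed reads over the start of Alb were 91.89% methylated in CxF, 22 over that of Tex19.1 were 63.64% methylated in FxC, and 33 over that of Lin28a were 0% methylated in CxF. In those reads Alb and Tex19.1 had methylated CpGs near a start that also carried a peak, whereas Lin28a had none methylated. These are picked genes, each given only in the cross named, and they do not stand for the genes that rose or fell.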

How the data were processed

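RNA-seq was used from all 11 libraries, with the 3 ysE libraries compared. Per the submitters' processing notes, reads were aligned to mm10 with GSNAP, and the authors deposited raw read counts and RPKM per RefSeq transcript made with custom scripts, Samtools and RSeQC. The strand setting and the treatment of reads with several matches are not given in the sources used here. The authors also deposited the methylation percent of each CpG and MACS (1.4.2) peaks with their score. Counts were fitted in edgeR 4.0.16 (R 4.3.3; filterByExpr, TMM, quasi-likelihood test) over 5 groups, and p-values were adjusted by Benjamini-Hochberg over 24858 transcripts. A gene was represented by its transcript with the most reads over the 3 ysE libraries. Calls used a false discovery rate of 5%, and large changes also at least 4-fold. The test was also run on simulated counts without tissue or protocol differences, so that run does not measure the error of the calls given here.

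Residual spread came from the other groups, with 6 degrees of freedom. Every standard error (SE) given is approximate. It is the size of the log2 fold change divided by the square root of the F statistic of the quasi-likelihood test. Gene lists, members and tests were chosen with earlier results of these data known. Named genes were Afp, Tex19.1, the 12 largest coding changes in each direction with at least 5 RPKM in the higher stage, up to 5 called list members per direction with at least 1 RPKM in the higher stage, and the defining members of a list whether called or not. Other genes named (Slc40a1, fibrinogens, Srebf2, Slc2a1, Gc and the like) were added after their values were seen. A gene at 0 in a stage was set at a floor of 3 counts over that stage, and the list medians called with bounds use those values and leave out genes at or under the floor. Peaks were matched to RefSeq gene starts of GRCm38.p6. Alternatives covered scaling, filter, tool (DESeq2 1.42.0, limma 3.58.1), libraries in the fit and genes counted. Some genes that the rule would name are not reported here.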

Additional observations from a re-analysis of the deposited data

How the results depend on the processing

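No paired analysis was possible, because each sample was a pooled litter of its own stage and the replicate letters link no samples across stages. The 143 genes taken by the naming rule, other than Afp and Tex19.1, kept their direction in every alternative run, and those named outside the rule were not run. The E12.5 library was in every run, and most of the 143 were picked for being called. Their direction was thus close to fixed in advance, and its holding is no support. Of the 143, 130 were called. Their calls were lost in 292 values with 1 library left out. Such values number 1430 over the 143, which includes genes with no call to lose. Calls were also lost in 21 genes on log2(RPKM + 1) in limma, 11 with RLE scaling, 9 with 1 transcript per gene and 8 with total counts. In this order, the numbers called higher, lower, at least 4-fold higher and at least 4-fold lower were 3158, 3624, 920 and 1253 with ysE and mesoderm only, 2102, 3544, 780 and 1234 without the 4 cystic EB libraries, 3834, 4002, 999 and 1287 with 3 ysE libraries only (coefficient of variation 0.142 against 0.3995), and 1672, 2791, 771 and 1115 with the EBs as 2 groups. DESeq2 called 1497, 1397 and 786 in the first 3 of these. limma on log2(RPKM + 1) gave 992 higher and 538 lower (64.84% higher), 273 at least 4-fold higher and 98 at least 4-fold lower, and with a pseudocount of 0.1 it gave 276 at least 4-fold lower. The 3-library fit shared 708 of the 718 higher and 829 of the 834 lower genes. It reused the same ysE libraries and called 3834 higher and 4002 lower of 15650 genes tested, so this overlap is no independent check. Leaving out 1 library at a time gave 111 to 1033 higher, 136 to 1165 lower, 108 to 641 at least 4-fold higher and 126 to 613 at least 4-fold lower. The counts were lowest without E9.25 ysE A, and without B 131 and 129 genes were called at least 4-fold higher and lower. Without mesoderm A or B, 463 and 460 genes were lower. In those leave-one-out fits the log2 fold change of Afp ran from 2.33 to 2.50 (adjusted p = 0.1522 to 0.5772) and that of Tex19.1 from 2.69 to 2.91 (adjusted p = 0.00183 to 0.1544). Afp passed the threshold with ysE and mesoderm only (2.51, adjusted p = 0.00177), without the EBs (2.38) and with 3 ysE libraries only (2.54). Where mesoderm-high genes were left out, an alternative chosen after seeing the data, 237 were at least 4-fold lower. With peaks in the upper 50% by score, the shares with a peak were 60.85% (higher), 71.88% (lower) and 61.17% (all), and within 5 kb 78.06% of all. With at least 10 reads per CpG the methylation medians for higher, lower and all were 69.28%, 20% and 54.55% in CxF (10, 11 and 269 genes), and 70.0%, 56.66% and 42.86% in FxC (2, 4 and 71 genes). With summed reads, also added after seeing the data, the FxC medians were 31.82% and 34.06%. The cause of these shifts was not tested. On the log2(RPKM + 1) scale 32 of 35 list medians stayed on the same side of the median gene, and under the other scalings all 35.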
